A study of Homo sapiens with 3 samples.

Results

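The regions described here were 2225 H3K27ac peaks of HCC1599 cells that had a high score and no H3K4me3 peak on them. A region was included when it lay on chromosomes 1 to 22, its deposited score was at least 500, and it shared not a single base with any H3K4me3 peak. They made up 3.13% of the 71043 autosomal H3K27ac peaks and 17.2% of the 12973 that reached that score. The regions were thus chosen by their H3K27ac score and by the absence of H3K4me3, so both are given below as descriptions only.

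HCC1599 is an established breast cancer cell line, and the series title places it in MARCO-TST positive triple-negative breast cancer, a tumour class that lacks the oestrogen receptor, the progesterone receptor and HER2 amplification. The labels do not spell out TST and name no treatment. The chromatin was cross-linked with formaldehyde, then sheared by sonication and digested with micrococcal nuclease. The series has 3 libraries: H3K27ac (Active Motif antibody), H3K4me3 (Cell Signaling antibody) and an input without antibody. With 1 library per mark there was no replicate, so no difference below carries a test, and the 95% intervals are exact binomial (Clopper-Pearson) intervals that cover counting error only.

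H3K27ac, acetylation of lysine 27 of histone H3, marks active promoters and active enhancers. H3K4me3, trimethylation of lysine 4, is concentrated at the start sites of transcribed genes, above all those rich in the dinucleotide CpG. Enhancers are stretches of DNA away from gene starts that bind transcription factors and raise transcription of genes, often over long distances, and they usually carry H3K27ac and H3K4me1 with little H3K4me3.

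A small share of the regions did lie on annotated gene starts, and the bases before 7 starts are shown as examples. They are RefSeq sequences of GRCh38.p14, 250 bases upstream of the start, written 5′ to 3′ on the gene's strand. Capitals mark matches on either strand to TATAAA, the core of a TATA box, or to TGANTCA, which takes in the letters that AP-1 (Fos and Jun) proteins bind. The first pair compares 2 starts of GRAP2, an adaptor of antigen receptor signalling: the start under a region (chr22:39946567-39946816, plus strand) and a start further upstream that had both marks (chr22:39926354-39926603, plus strand). The second pair compares 2 starts of PDE4D, a cAMP-degrading enzyme: the start under a region (chr5:60496287-60496536, minus strand) and a downstream start with an H3K4me3 peak and no H3K27ac peak (chr5:59039477-59039726, minus strand). The others are the starts of TM4SF4, a membrane protein with 4 transmembrane segments (chr3:149474447-149474696, plus strand), and of the long non-coding RNAs (lncRNAs) LOC105375440 (chr7:106623809-106624058, plus strand) and LINC03108 (chr1:234980777-234981026, minus strand).
GRAP2 start under a region: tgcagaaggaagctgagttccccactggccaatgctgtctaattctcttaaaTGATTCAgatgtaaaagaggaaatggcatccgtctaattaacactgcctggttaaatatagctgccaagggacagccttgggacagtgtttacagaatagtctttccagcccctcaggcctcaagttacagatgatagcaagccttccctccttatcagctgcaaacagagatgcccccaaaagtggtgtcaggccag
GRAP2 start with both marks: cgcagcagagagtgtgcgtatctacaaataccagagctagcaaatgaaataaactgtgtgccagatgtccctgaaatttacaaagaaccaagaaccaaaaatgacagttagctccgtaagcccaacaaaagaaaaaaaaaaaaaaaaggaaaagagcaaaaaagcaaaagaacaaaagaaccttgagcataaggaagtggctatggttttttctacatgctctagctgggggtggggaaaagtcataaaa
PDE4D start under a region: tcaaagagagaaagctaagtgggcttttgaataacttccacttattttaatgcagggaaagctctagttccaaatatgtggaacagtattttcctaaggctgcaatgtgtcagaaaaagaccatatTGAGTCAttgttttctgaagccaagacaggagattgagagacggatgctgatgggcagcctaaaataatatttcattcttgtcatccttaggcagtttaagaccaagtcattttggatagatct
PDE4D start with H3K4me3: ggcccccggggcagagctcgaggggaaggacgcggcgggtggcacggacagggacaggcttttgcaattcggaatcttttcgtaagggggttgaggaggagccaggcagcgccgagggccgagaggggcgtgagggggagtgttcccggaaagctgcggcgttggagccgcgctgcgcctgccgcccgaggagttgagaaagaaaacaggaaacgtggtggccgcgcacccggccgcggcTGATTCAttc
TM4SF4: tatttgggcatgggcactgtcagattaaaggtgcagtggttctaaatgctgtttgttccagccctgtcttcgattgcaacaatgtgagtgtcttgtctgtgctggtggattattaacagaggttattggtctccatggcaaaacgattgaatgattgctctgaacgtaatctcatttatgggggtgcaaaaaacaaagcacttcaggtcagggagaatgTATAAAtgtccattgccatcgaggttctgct
LOC105375440: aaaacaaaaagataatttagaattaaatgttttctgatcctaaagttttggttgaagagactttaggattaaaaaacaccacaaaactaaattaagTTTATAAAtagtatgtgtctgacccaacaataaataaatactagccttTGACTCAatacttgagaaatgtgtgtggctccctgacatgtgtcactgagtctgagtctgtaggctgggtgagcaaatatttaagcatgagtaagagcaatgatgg
LINC03108: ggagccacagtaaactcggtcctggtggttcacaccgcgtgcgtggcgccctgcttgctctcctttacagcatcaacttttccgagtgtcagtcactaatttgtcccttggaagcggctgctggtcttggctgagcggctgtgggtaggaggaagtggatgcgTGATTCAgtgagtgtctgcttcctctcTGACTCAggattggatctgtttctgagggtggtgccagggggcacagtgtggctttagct

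These 250 bases held 1 CpG at the GRAP2 start under a region and 3 at its start with both marks, so neither GRAP2 start was rich in CpG. The PDE4D start under a region held 1 CpG against 26 at its start with H3K4me3. TM4SF4 held 4, LOC105375440 held none (0) and LINC03108 held 9. A TGANTCA match stood at both PDE4D starts, and LINC03108 held a pair of them.

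The deposited peak score has no stated unit and was used only to rank peaks within the H3K27ac list. Among the 2225 regions it ran from 500 to 3228 with a median of 879.5, and 134 regions shared the value 3100, at which scores pile up. The share of high-scoring peaks without H3K4me3 was smaller at higher scores: it was 31.8% among 1381 peaks between 500 and 600 and 5.37% among 2683 peaks at 3100 or above. Just inside the threshold were regions at UPB1 (500), AP1B1 (500.02), SORCS2 (500.26), CLPTM1 (500.27) and LOC124903401 (500.27). Just outside it were peaks at SEPTIN9 (499.4), MGMT (499), TLR9 (498), METAP1D (497.8) and KIAA1217 (497.8). The threshold therefore cut through a continuous range of scores. The number of regions also rested on weak H3K4me3 peaks: it was 3745 when only H3K4me3 peaks with a score of at least 100 were counted.

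The regions were broad. Their median width was 3080 bp (95% interval 3016 to 3128 bp), the middle 50% spanned 2362 to 4010 bp, and together they covered 7.48 Mb. High-scoring H3K27ac peaks on H3K4me3 had nearly the same median, 3100 bp (3060 to 3144 bp), although their widest reached 58355 bp against 17074 bp here. Lower-scoring peaks were narrower, with medians of 626 bp without H3K4me3 and 1058 bp with it. Width followed the score within the regions (Spearman rho 0.51 over 2225 regions of 1 library, a description only), with medians from 2446 bp at scores of 500 to 600 to 5597.5 bp at scores of 3100 or more. Only 13 regions were under 1000 bp wide, and 12 were over 10000 bp.

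**Figure D1:**
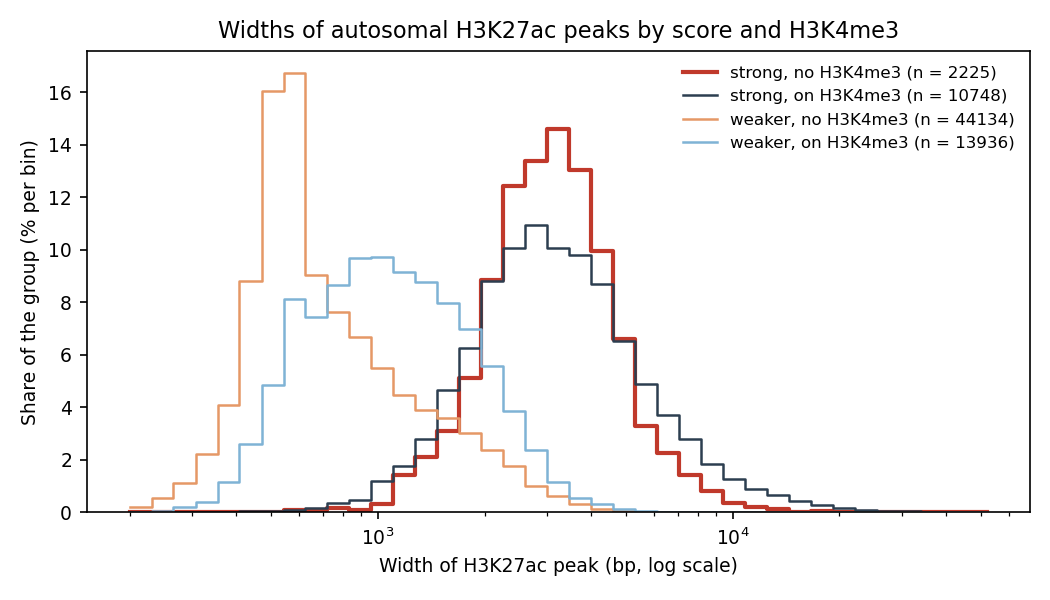
Widths of autosomal H3K27ac peaks in bp on a log axis, as the share of each group per bin; the lines are peaks scoring at least 500 (strong) or less (weaker), each with and without H3K4me3. The regions centre on 3080 bp, beside 3100 bp for the high-scoring peaks on H3K4me3 and 626 bp for the lower-scoring peaks without it.

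Most regions stood away from gene starts. A start was a RefSeq start site listed with its promoter sequence or, for genes with no listed start, either annotated end of the gene. Of the 2225 regions, 1759 (79.1%, interval 77.3 to 80.7%) lay more than 2.5 kb from every start of genes of any kind, against 67.9% of all autosomal H3K27ac peaks. The share was 31.5% for high-scoring peaks on H3K4me3 and 86.4% for lower-scoring peaks without it. H3K4me3 itself gathers at starts and its absence chose the regions, so their distance from starts is a description and not an independent result. The median distance was 10438 bp to a start of any kind and 32057 bp to a protein-coding start, and 452 regions (20.3%) were over 100 kb from every protein-coding start.

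A start fell inside 216 regions (9.71%), against 17.4% of all autosomal H3K27ac peaks, 59.0% of the high-scoring peaks on H3K4me3 and 2.49% of the lower-scoring peaks without it. Listed starts accounted for 86 of these regions, and ends of genes with no listed start for 132, with some regions holding both. The listed starts belonged to lncRNAs in 48 regions and to protein-coding genes in 38. The unlisted ends were those of lncRNAs in 57 regions, pseudogenes in 37, protein-coding genes in 22 and miRNA genes in 12, among others. They are not shown to be active starts.

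**Figure D2:**
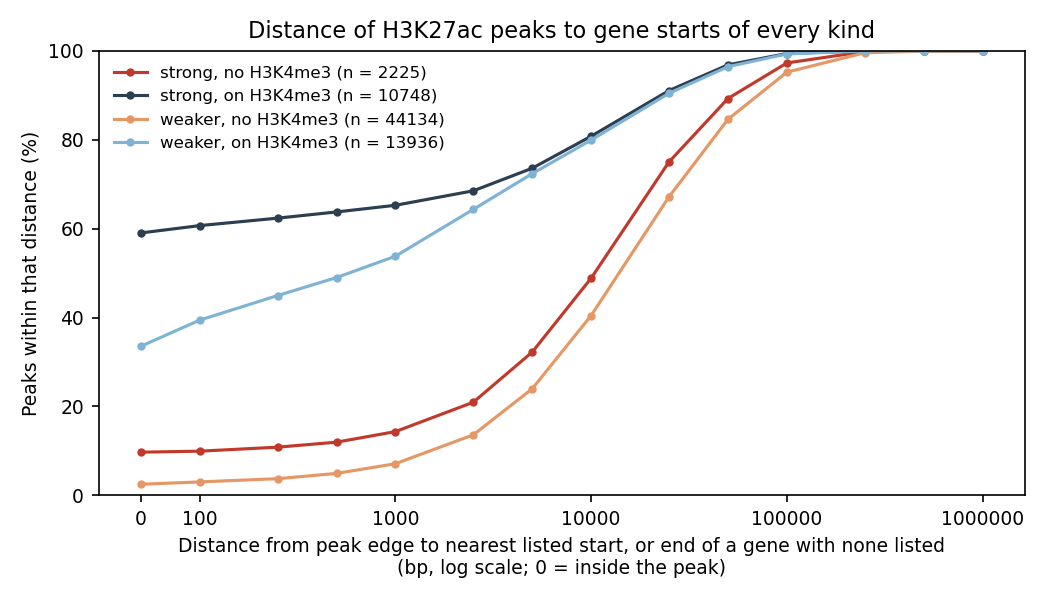
Share of peaks (%) whose edge lies within a given distance (bp, log axis) of a listed gene start or the end of a gene with no listed start; 1 line per group of autosomal H3K27ac peaks, strong meaning a score of at least 500. The line of the regions starts at 9.71% with a start inside the peak and stays close to that of lower-scoring peaks without H3K4me3, far below the 59.0% of high-scoring peaks on H3K4me3.

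About equal numbers of regions lay inside and outside protein-coding genes. The midpoint was inside a protein-coding gene for 1114 regions (50.1%, 48.0 to 52.2%), against 59.4% of all autosomal H3K27ac peaks, 67.8% of high-scoring peaks on H3K4me3 and 55.5% of lower-scoring peaks without it. A further 296 (13.3%) lay only in a gene of another kind, such as a lncRNA, and 815 (36.6%) lay in no annotated gene, against 22.7% and 32.4% in the latter groups. Exons and introns are not told apart here. Within host genes of known direction (881 regions), cut into 4 equal stretches from start to end, the first stretch held 19.6% of midpoints and the last held 31.2% (28.2 to 34.4%). Lower-scoring peaks without H3K4me3 were spread evenly, with 23.6% in the first and 25.5% in the last, and high-scoring peaks on H3K4me3 had 64.9% in the first.

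The nearest H3K4me3 peak was a median of 12890 bp away, with the middle 50% between 4625 and 31793 bp. For lower-scoring peaks without H3K4me3 the median was 20741 bp. In 155 regions (6.97%) an H3K4me3 peak lay within 1 kb, the closest at 13 bp, and in 326 (14.7%) none lay within 50 kb. Few regions were isolated from other acetylation: 12.3% had no other H3K27ac peak within 12.5 kb, against 27.7% of all autosomal H3K27ac peaks. High-scoring peaks on H3K4me3 came close, at 16.7%, with the same median of 2 neighbours, and lower-scoring peaks stood at 20.5% with H3K4me3 and 33.5% without it.

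Chromosomes differed in the share of their high-scoring H3K27ac peaks that lacked H3K4me3. The share was highest on chromosome 8, with 135 of 585 (23.1%, 19.7 to 26.7%), and lowest on chromosome 19, with 73 of 749 (9.75%, 7.72 to 12.1%). The remaining chromosomes lay between 13.7% and 22.2%, and chromosome 1 held the most regions, 267. Local copy number cannot be read from peak lists and was not tested.

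Scores pile up at 3100, where 134 regions tied, so values above it are not shown to mean stronger peaks. Of the 20 highest-scoring regions, 10 scored above 3100. They lay in SLC16A5, a member of the monocarboxylate transporter family (3228), in PDE4B, another cAMP phosphodiesterase (3222), in BAIAP2, an adaptor protein that acts on actin (3219), in GRAP2 (3216) and in ARHGAP29, a GTPase-activating protein (3208). The others lay outside protein-coding genes, nearest to PRICKLE1, a planar cell polarity protein (3185), SLC44A3, a choline transporter-like protein (3184), CALCOCO1 (3183), MACROH2A1, a variant of histone H2A (3109), and MYC (3105). The distances from the midpoint to these nearest starts were long for PRICKLE1 (202013 bp) and MACROH2A1 (168877 bp), and 47484 bp for SLC44A3, so a nearest gene is a place name and not a shown target.

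The other 10 all scored 3100 and were ranked by width. The widest region of all covered 17074 bp at LYN, a Src-family kinase (chr8:55975811-55992884). It was followed by 13524 bp at RXFP4, a relaxin-family peptide receptor (chr1:155939631-155953154), and 12641 bp inside SIPA1L3, a regulator of Rap GTPases in epithelial polarity (chr19:37981777-37994417). Next came SNX13, a sorting nexin, with 12259 bp outside protein-coding genes, 247114 bp from the nearest protein-coding start to the midpoint, and NFIX, a nuclear factor I transcription factor, with 11860 bp inside the gene. TM4SF4 (11412 bp) had its listed start inside the region, as RXFP4 did. Another 3 lay nearest to POU5F1B, a retrogene copy of the pluripotency factor OCT4 (11246 bp, over the lncRNA gene CASC8), CAMK1G, a calmodulin-dependent kinase (10629 bp, over LINC01698), and SGIP1, an endocytic adaptor (9512 bp, inside the gene).

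The 15 widest regions added 5 places. BARX2, a homeobox transcription factor, held 13019 bp at a score of 1728. NDRG1, a stress-responsive gene, was nearest to a region of 10734 bp that scored 605, and TKT, the transketolase of the pentose phosphate pathway, held 10148 bp at a score of 701, so these 2 wide regions scored below the median of 879.5. WBP1L (9657 bp) and the read-through gene TPTEP2-CSNK1E (9465 bp) completed the group.

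Most regions had no other region within 12.5 kb, and no share for regions scattered evenly was computed. Joined across gaps of at most 12.5 kb, the 2225 regions formed 1968 groups, of which 1761 were single regions. The 207 groups of at least 2 held 464 regions (20.9%, 19.2 to 22.6%), and the longest held 6. Joined by the same gap, 37.8% of the high-scoring peaks on H3K4me3 stood with another of their kind, but there were 10748 of those.

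The largest group was 6 regions within PRKCH, the eta isoform of protein kinase C (chr14:61497673-61544660). Their scores were 696, 1436, 696, 2051, 686 and 856, and the nearest H3K4me3 peak was between 2693 and 46708 bp away. Next were 5 regions in and beyond SDC1, the epithelial heparan sulfate proteoglycan syndecan-1 (chr2:20182454-20216427). By coordinate they scored 718, 899, 562, 540 and 2012 and lay 38971 to 8702 bp from its start, the last 2 inside the gene and the others past its far end. Another 5 lay nearest to BDH1, an enzyme of ketone body metabolism (chr3:197482113-197505374), with scores of 1863, 997, 2248, 3100 and 762. Groups of 4 lay inside SIPA1L3, MAML2 and NTN1 and nearest to RTN4IP1, a mitochondrial protein, MESP1 and MESP2, mesoderm transcription factors, SNX13, and CD44, the hyaluronan receptor. The CD44 group (chr11:35081288-35101805) lay over or next to the lncRNA LOC105376627, 37365 to 53760 bp from the CD44 start. Its regions scored 2362, 2499, 1765 and 1614.

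Of 19126 autosomal protein-coding genes, 884 (4.62%) held the midpoint of a region. Most of them, 707, held 1, and 128 held 2. MAML2, a coactivator of Notch-dependent transcription, held the most, 9, followed by NTN1, the axon guidance factor netrin-1, with 8. SIPA1L3, NAV2 (a neuron navigator protein), AOPEP (an aminopeptidase) and PRKCH held 6 each, and RAD51B (homologous recombination) and SLC1A2 (a glutamate transporter) held 5. CUEDC1, CHST9 (a sulfotransferase), SPIDR (a DNA repair scaffold) and SPATA13 (a guanine nucleotide exchange factor) held 4. Another 37 genes held 3, and these were ranked by their highest score. Of them, PDE4B, ECE1 (endothelin-converting enzyme) and SLC2A12 (a glucose transporter) came within the 15 genes named. Genes with many regions were mostly long, so these counts are not rates per length.

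These genes differed in how strong their regions were. The 3 regions of PDE4B, a gene that its highest score brought into this group, scored 2578, 3222 and 2933. Those of SIPA1L3 ran from 626 to 3100 with a median width of 6323 bp, covered 43751 bp together and were the broadest among the 15 genes. The 5 regions of SLC1A2 scored lower, between 567 and 1131. All 8 regions of NTN1 lay at least 15851 bp from H3K4me3, whereas those of AOPEP lay between 31 and 7135 bp from it.

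MAML2 spans 366.6 kb on chromosome 11 (chr11:95976598-96343195). It held 51 H3K27ac peaks. Of these, 20 scored at least 500, and 9 of those 20 had no H3K4me3. Its 18 H3K4me3 peaks included only 3 that scored at least 500. Counted from the listed start, the regions scored 1160, 508, 1426, 679, 501, 566, 1415, 533 and 3100. The last 4 of these formed the group named above and stood in the distal part of the gene, from 0.71 to 0.79 of its length, with the highest score at chr11:96051419-96057128 (5710 bp). The 3 regions nearest to the start lay 240, 818 and 330 bp from an H3K4me3 peak, whereas the other 6 lay 4499 to 19366 bp from one. The count depended on both thresholds: MAML2 held 4 regions at a score of at least 1000, and 14 when only H3K4me3 peaks scoring at least 100 were counted.

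**Figure D3:**
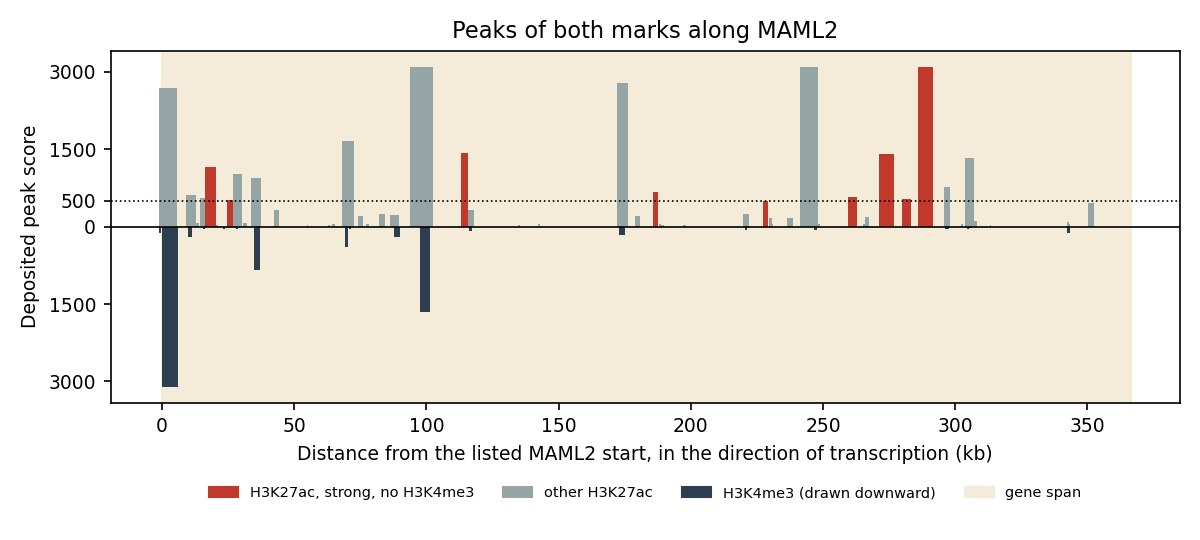
Deposited scores of H3K27ac and H3K4me3 peaks along MAML2, by distance in kb from the listed start in the direction of transcription; each bar is 1 peak, as wide as the peak, with H3K4me3 drawn downward and a dotted line at 500. The 9 regions without H3K4me3 are spread over the gene between H3K27ac peaks that do carry H3K4me3, and the highest of them scores 3100.

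MARCO, the scavenger receptor of macrophages that the series title names, held 2 regions in its distal part. The first, chr2:118981930-118983789, was 1860 bp wide and scored 734, and the second, chr2:118986769-118990844, was 4076 bp wide and scored 1661. The nearest H3K4me3 peaks were 98532 and 103371 bp away, and neither mark had a peak within 1 kb of the MARCO start. At a score of at least 1000 the second region alone was left.

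Genes that held a region mostly had both marks at their own start. A peak of each mark lay within 1 kb of a start for 643 of the 884 genes (72.7%, 69.7 to 75.7%), against 58.3% of all autosomal protein-coding genes. Genes that held lower-scoring peaks without H3K4me3 and no region had a similar share, 70.3% (69.2 to 71.3%), and genes with neither had 49.1%. The genes holding a region were long, with a median of 87.5 kb against 24.5 kb over all genes. The share differed by little at 50 to 100 kb (71.6% against 67.2% of genes of that length without a region) and by more at 200 kb and over (74.8% against 50.4%).

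For 18 gene lists the number of genes with a region within 50 kb was counted, where the share over all autosomal protein-coding genes was 15%. The share was above that value for 14 of the 18 lists, among them the neuronal, endothelial, macrophage, mesenchymal and housekeeping lists. Most intervals were wide. All included that value except those of the luminal progenitor, the basal epithelial and the cytoskeleton and integrin lists. No list was tested, and longer genes take up a wider span and so have more room for a region. A region within 50 kb of a list gene can lie in or nearer to another gene. That scoring 1748 near NOTCH3 lay on the start of EPHX3, and that near KRT6B lay 163 bp from the start of KRT75. Those near DTX1 and MCL1 were nearest to RASAL1 and ENSA, and those scoring 1053 and 545 near PKP1 were at TNNT2. Both regions near KRT8 were nearest to the start of KRT78, and that scoring 529 near GRHL3 lay in STPG1. These cases are examples and not a full list.

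Genes of mammary luminal progenitors, the cells that give rise to milk-producing and hormone-responsive cells, had a region within 50 kb in 6 of 8 cases (75%, 34.9 to 96.8%). LTF, lactoferrin, held a region scoring 779 that lay 87250 bp from H3K4me3. Regions near but outside were found at KIT, a receptor tyrosine kinase (638), PROM1, the membrane protein CD133 (1251), ALDH1A3, a retinaldehyde dehydrogenase (619), and ELF5, the transcription factor of the milk-producing lineage. The ELF5 region scored 3100, was 5469 bp wide and lay 29924 bp from the gene. SOX10, which had neither mark within 1 kb of a start, had regions at 37499 and 48265 bp. The second of these lay on the start of the lncRNA POLR2F-AS1. SLPI and TNFRSF11B had no region within 50 kb.

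Among 18 basal epithelial genes 7 had a region (38.9%, 17.3 to 64.3%). CDH3, P-cadherin, held one scoring 1259. KRT16 and KRT17, neighbouring keratin genes, shared a region of 4173 bp scoring 2184 that lay 46 bp from an H3K4me3 peak. KRT6B, another keratin, had a region scoring 505. No region lay within 50 kb of KRT5, KRT14, KRT15, KRT6A, TP63, LAMA3, LAMB3, ITGA6, ITGB4, TRIM29 or NGFR. KRT6A, KRT6B, TP63 and LAMA3 had neither mark within 1 kb of a start. Among 15 luminal genes 3 had a region. SPDEF, an ETS transcription factor, held one scoring 820, and TFF3, a secreted trefoil peptide, had one scoring 912. KRT8 had 2 scoring 809 and 1457, both nearer to KRT78.

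Epithelial transcription factors had a region in 7 of 22 cases (31.8%, 13.9 to 54.9%). EHF, an ETS factor of epithelia, held a region of 9250 bp that scored 1855. GRHL2, a grainyhead factor, held one of 6762 bp that scored 1377, and RUNX1 held one that scored 507. ELF3, another epithelial ETS factor, had regions scoring 619 and 3040. GRHL1 had 739 and 645, GRHL3 had 842 and 529, and FOXC1, a forkhead factor, had 1466 and 1278. All 22 genes of this list had both marks at a start. Epithelial junction genes had a region in 4 of 18 cases: PKP1, the desmosomal plakophilin-1, held one scoring 501 and had 3 more within 50 kb. EPCAM, an epithelial adhesion molecule, had one scoring 3100 at 46632 bp, CLDN3 one scoring 3100 at 6551 bp and CLDN4, also a tight junction claudin, one scoring 1260 at 16648 bp.

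Genes of the cytoskeleton and integrins had a region in 8 of 18 cases (44.4%, 21.5 to 69.2%), at a median gene length of 92.0 kb. Among those holding one, ACTN1, an actin cross-linker, held a region scoring 1058, MYH9, non-muscle myosin, one scoring 1293, and CD44 one scoring 875. The region at ACTN4 (540) overlapped an end of the gene, with its midpoint outside. Near but outside were regions at VCL, the focal adhesion protein vinculin (520), TNS3 (1589) and ITGB6, an integrin chain (619). Growth factor receptors and ligands had a region in 5 of 19 cases. IGF1R held one of 6325 bp scoring 1157, FGFR1 one scoring 1348, and TGFA, a ligand of the EGF receptor, one scoring 1279 with 3 more nearby. AXL had one scoring 864 and EPHA2 had 2 scoring 1254 and 523.

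Notch pathway genes had a region in 5 of 20 cases (25%, 8.66 to 49.1%). Besides MAML2, MAML3, its relative, held one scoring 522. The receptor gene NOTCH3 had 2 outside it, scoring 3100 and 1748, at 26870 and 28912 bp. NRARP, a target and regulator of the pathway, had one of 6367 bp scoring 1554, and DTX1, an E3 ligase of the pathway, one scoring 1022. AP-1 and early response genes had a region in 2 of 11 cases, JUN (527) and MAFF, a small MAF factor (3100 and 575), and all 11 had both marks at a start. Breast cancer driver genes had one in 2 of 18 cases: CDK6, a G1 kinase, held 3 scoring 1386, 959 and 691, and MCL1, an anti-apoptotic gene, had one scoring 607.

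In the lists for other cell types, housekeeping and the cell cycle, 0 to 20% of genes had a region. The luminal epithelial (20%), AP-1 (18.2%) and breast cancer driver (11.1%) lists fell in the same range, and epithelial junction genes stood at 22.2%. Macrophage genes had a region in 3 of 15 cases (MARCO, CD14 and TYROBP), endothelial genes in 2 of 12 (VWF, with 2 inside scoring 1591 and 1118, and ENG), neuronal genes in 2 of 12 (MAP2 and STMN2) and mesenchymal genes in 2 of 12 (SNAI1 and SPARC). Lymphocyte genes had one in 1 of 15 (GZMB) and fibroblast genes in 0 of 11 (0 to 28.5%). Housekeeping genes had one in 2 of 13 (PPIA and YWHAZ) and cell cycle genes in 2 of 15 (CCNB2 and MCM5). Of the 21 list genes that held a region, 16 had both marks at a start, and LTF, SPDEF, MARCO, VWF and MAP2 did not.

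**Figure D4:**
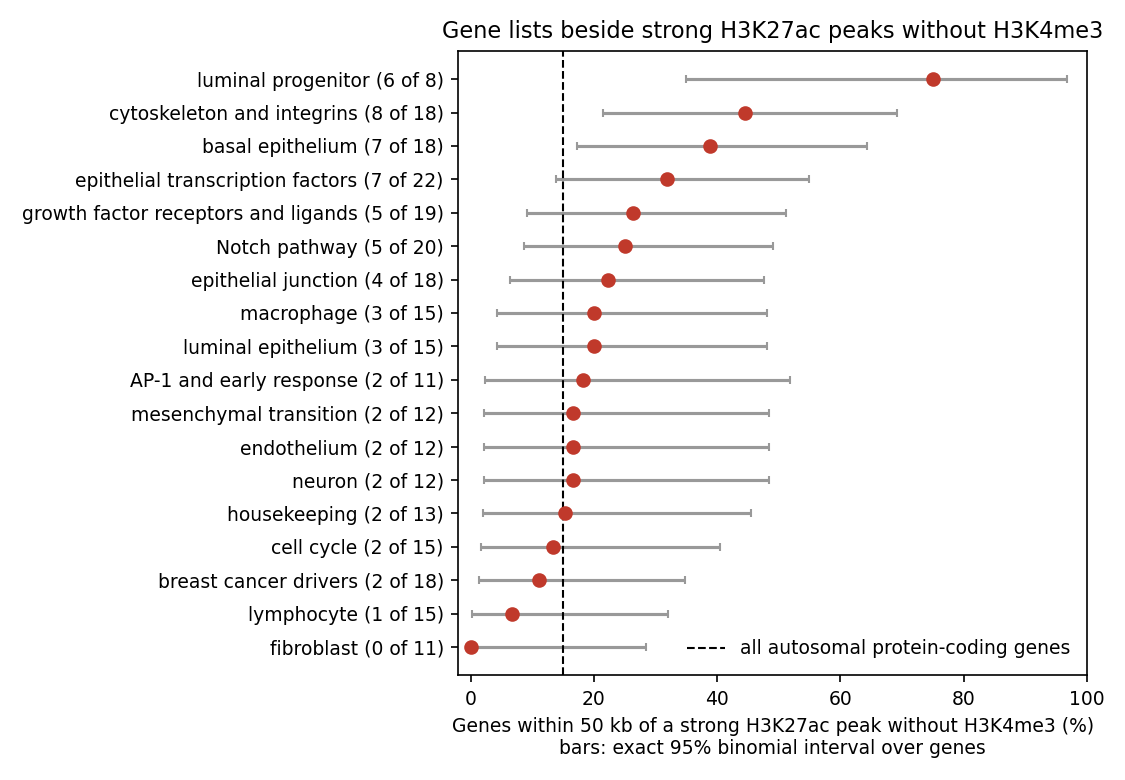
Share of the genes of each list (%) with a high-scoring H3K27ac region without H3K4me3 within 50 kb; points are shares, bars exact 95% binomial intervals over genes and the line the 15% of all autosomal protein-coding genes. Luminal progenitor genes stand at 75% and fibroblast genes at 0, with wide intervals on both.

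Few gene starts lay under the regions. Of 33558 RefSeq promoter windows of 300 bases (250 before to 50 after the start), 99 (0.295%) overlapped a region. They lay under 89 regions (4%, 3.22 to 4.90%) and belonged to 91 genes, 40 protein-coding and 51 lncRNA. LncRNAs owned 54.5% of these windows, against 37.4% of all windows and 19.0% of the 8470 windows with H3K4me3 under high-scoring H3K27ac peaks. Of the 40 protein-coding genes, 17 had an H3K4me3 peak at another listed start, as GRAP2 and PDE4D did, and 18 had a single listed start.

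The windows under regions were poor in CpG. H3K4me3 gathers at starts rich in CpG and its absence chose the regions, so this is a description and not an independent result. The median was 4 CpG (middle 50% 2 to 7), against 28 (19 to 36) under high-scoring peaks with H3K4me3 and 14 over all windows. At least 10 CpG were present in 13 of the 99 windows (13.1%), against 90.3% with H3K4me3 and 56.1% of all windows. Median GC content was 51.0%, 66.7% and 58.7% in the same order. Protein-coding and lncRNA windows under regions both had a median of 4 CpG. Over all lncRNA windows the median was 5, so the gap was small for these, 54 of the 99 windows, whereas over all protein-coding windows it was 21.

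**Figure D5:**
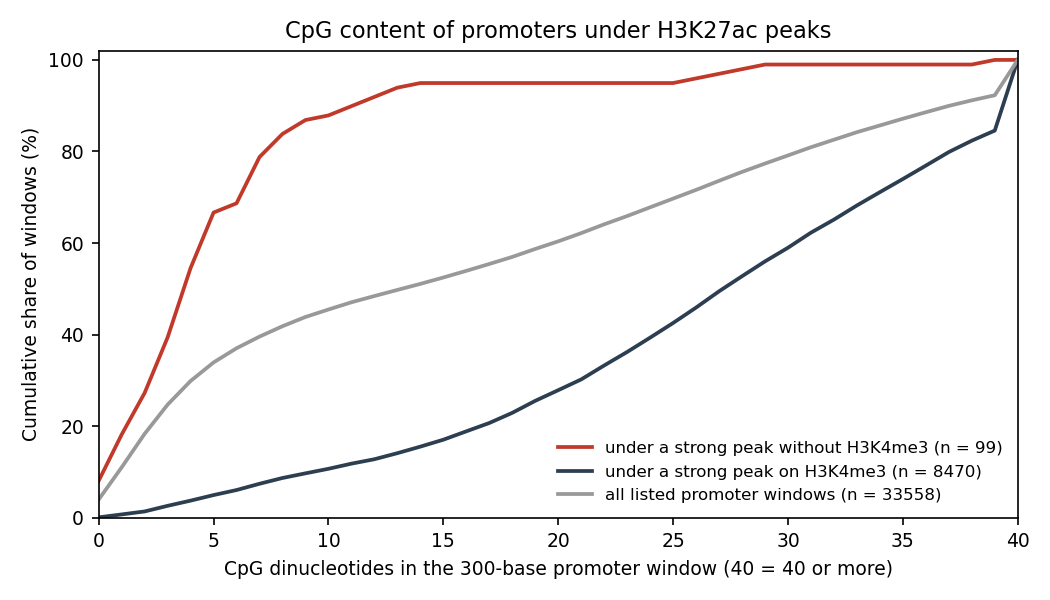
Cumulative share of 300-base promoter windows (%) by their number of CpG; 40 stands for 40 or more; lines are windows under the regions, windows with H3K4me3 under high-scoring H3K27ac peaks, and all windows. The median is 4 CpG under the regions, 28 with H3K4me3 and 14 over all windows, a description only, since the absence of H3K4me3 chose the regions.

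The 12 highest-scoring regions on promoter windows were those at GRAP2, RXFP4, TM4SF4 and PDE4D and at the lncRNAs LINC01698, LOC124904554, LOC105375440, LOC107986166, LINC03108, LINC01942, LOC105376479 and LOC105372396. Their scores ran from 2503 to 3216, and LINC03108, with 10 CpG in its 300 bases, was the richest. A TGANTCA match stood in the windows of GRAP2, PDE4D, LOC124904554, LOC105375440 and LINC03108. TATAAA stood in those of TM4SF4 and LOC105375440.

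In all, 12 motifs were searched on both strands of each window: TATAAA for the TATA box, CCAAT for NF-Y, GGGCGG for the GC box, TGANTCA for AP-1, CCGGAAG for ETS factors, ACCACA for RUNX, GGAATG for TEAD, GCCNNNGGC for TFAP2, AGATAA for GATA factors, TGTTTAC for forkhead factors, AACCGGTT for grainyhead factors and CACGTG for the E-box of MYC. They can overlap one another. TGANTCA allows any base at its centre, so it takes in more than the letters that AP-1 binds. TGANTCA was present in 21 of the 99 windows under regions (21.2%, 13.6 to 30.6%), against 4.51% of windows with H3K4me3 under high-scoring peaks and 7.68% of all windows. TATAAA was present in 15.2%, 5.31% and 11.6%. GGGCGG, the GC box, was present in 15.2%, 71.3% and 45.0%, and CCGGAAG, an ETS motif, in 3.03%, 17.9% and 10.2%. CpG content moves with these shares. Among windows with fewer than 10 CpG, a cut chosen after the values were seen, TGANTCA was present in 19 of 86 under regions (22.1%, 13.9 to 32.3%), 14% with H3K4me3 and 12.9% of all. TATAAA was then present in 17.4%, 17.6% and 21.0%, and GGGCGG in 9.30%, 18.1% and 8.75%. CCGGAAG was then present in 2.33%, 4.25% and 1.83%, so its lower share under regions did not remain against all windows of this class. CACGTG was present in 9.30% (4.10 to 17.5%), 5.35% and 3.62% of these windows, and AGATAA in 9.30% (4.10 to 17.5%), 11.9% and 18.8%. Windows of the same gene can overlap and were counted separately, so the same letters can count more than once. The KRT40 windows under a region overlap and all held CACGTG, and the overlapping LOC124905119 windows both held TGANTCA. The intervals treat windows as independent and are therefore too narrow. A match is a description of letters and not of a bound site.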

How the data were processed

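For H3K27ac and for H3K4me3 the authors deposited a list of peak positions with a score whose unit no source states. Per the submitters' processing notes, the tools were MACS 1.4 and Bowtie2, whose version they do not give, and the build was hg38. Signal tracks and read depth were not used here, so the depth behind each peak is unknown.

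Peaks were read with Python 3.11.15, numpy 2.4.6 and pandas 2.3.3. Overlap meant at least 1 shared bp, and positions are counted from 1. Overlaps and gaps were checked against bedtools 2.31.1, with 0 differences, and tested on simulated data. Intervals came from scipy 1.17.1. Genes and promoter sequences came from RefSeq (GRCh38.p14); 15101 of 19126 autosomal protein-coding genes had a listed start, and the other 4025 were placed by both annotated ends. Listed starts can miss a start, as at KRT8. No exon annotation or genome sequence was used.

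The regions, gene lists and motifs were chosen with earlier results of these data known. The genes named are those of the 20 highest-scoring and 15 widest regions (the gene holding the midpoint, else the nearest start), the 15 genes holding most regions, the 10 largest groups, list genes holding a region and up to 4 per list with one within 50 kb, the 12 highest-scoring regions on promoters, the 5 peaks either side of the threshold, and MARCO. Some genes that this rule takes in are not reported here. Other names were chosen after their values were seen. No test was made, since each mark had 1 library.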

Additional observations from a re-analysis of the deposited data

Results flagged for a closer look

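Chromosome X lay outside the choice of regions. It held 35 H3K27ac peaks that scored at least 500 and had no H3K4me3 peak on them, of 203 that reached that score (17.2%), which is the share found on the autosomes. They entered none of the comparisons above.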

How the results depend on the processing

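With 1 library per mark, no replicate could be left out. No paired analysis was possible because each group has a single library and no result comes from a test. A score of at least 300 gave 3696 regions, a median width of 2628.5 bp and 26.6% in groups. A score of at least 1000 gave 934 regions, 3759 bp, 76.0% beyond 2.5 kb of a start, 47.5% in protein-coding genes, 14.1% in groups, 774 named genes against 1628, 4 regions in MAML2 and 1 in MARCO. Counting only H3K4me3 peaks scoring at least 100 gave 3745 regions, 3179 bp, 28.7% in groups, 19985 bp to H3K4me3 and 14 regions in MAML2. Requiring that 50% of a peak be covered gave 4768 regions. The number of lists above the share over all genes was 10 to 12 under the 4 settings of score or H3K4me3, against 14. Allowing no H3K4me3 within 1000 bp gave 14717 bp to H3K4me3. Merging H3K27ac peaks under 500 bp apart gave a width of 3487.5 bp. The share away from starts was 85.7% at 1000 bp, 67.8% at 5000 bp, 93.5% for protein-coding starts and, by alternatives added after the data were seen, 91.1% with listed starts only and 72.0% with both ends of every gene. Joining within 5000 bp put 14.7% in groups. In all, 40 of 65 recomputed values moved by less than their counting interval or, for counts, less than 1.5 times. The share of host genes with both marks, the CpG median and the TGANTCA share were among them under every alternative run.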

Other observations

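The region around MYC, the transcription factor gene often gained in breast cancer, was singled out after its values were seen. Within 1000 kb of MYC lay 9 regions, against a median of 2 for autosomal protein-coding genes, and 97.1% of those genes had fewer. On the lower-coordinate side they scored 3100, 2162, 2865, 1125 and 3105 at gaps of 444825, 276223, 153801, 147405 and 61805 bp. On the higher side they scored 604, 612, 3100 and 3100 at gaps of 63052, 281810, 419935 and 683163 bp. The closest high-scoring one, chr8:127665914-127673628, was 7715 bp wide and lay 24465 bp from H3K4me3, and the widest, 11246 bp over CASC8, lay 2395 bp from it. Chromosome 8 also had the highest share of such regions, and copy number there was not tested.

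Regions far from any H3K4me3 peak were few, and those beyond 500 kb numbered 4. Their nearest protein-coding genes were RERGL (score 836, 1087994 bp from H3K4me3), ADGRB3 (676, 735420 bp), TNP1 (626, 634792 bp) and ST8SIA4 (1724, 580506 bp). The region nearest to RERGL was 1482 bp wide and the other 3 were at most 2424 bp wide, all below the median of 3080 bp.

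Of 1461 autosomal miRNA hairpins in RefSeq, 11 (0.753%) overlapped a region, and 235 overlapped an H3K27ac peak of any score. The 3 under regions scoring 3100 were MIR4425, MIR6738 and MIR5589, and the next was MIR4780, under a region scoring 1855.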
